A study of Homo sapiens with 24 samples.

Results

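RNA-seq counts of SUM159 cells kept for 30 h under Nifuroxazide (NIF) were compared between the ALDHbr and the ALDHneg population. These were the 3 ALDHbr and the 3 ALDHneg libraries labelled as NIF treated, 6 of the 24 libraries of the series, and libraries with the same replicate number were taken as a pair. SUM159 is an established line from a human breast cancer, and NIF belongs to the nitrofuran antibiotics. The cells were exposed to NIF as adherent cultures and only then sorted, so that both populations of a pair had received the drug and were separated by the aldehyde dehydrogenase (ALDH) activity they had at its end. The labels call the ALDHbr cells cancer stem cells (ALDHpos). The same sort of SUM159 cells under DMSO, the vehicle, gave 6 further libraries that entered the same fit and served as the background. One of these, ALDHbr DMSO replicate 3, stood apart and is left out in turn beside the results under DMSO. The colon cancer line SW620, studied in the same way, enters only as 1 median for a stretch of chromosome 17.

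ALDH enzymes oxidize aldehydes to carboxylic acids, and the ALDH1A enzymes make retinoic acid from retinal. The ALDEFLUOR assay turns this activity into fluorescence, and in breast cancer lines the bright cells are used as the population enriched in cancer stem cells. ALDH enzymes can also convert 5-nitrofurans, which makes the gene repertoire of bright and dim cells under such a drug a question of its own. A bulk library averages over its cells, so that fewer cells of a type and less RNA per cell cannot be told apart.

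The gene with the largest difference was ALDH1A1 (Entrez Gene 216, on the minus strand of chromosome 9, 72900671 to 72953053 in GRCh38). The 250 bases before its annotated start are shown for that reason. Capitals mark the letters CCAAT, which end 69 bases before the start. They occur on either strand in the RefSeq promoters (250 bases before to 50 after the start) of 43.3% of the 11535 tested genes that had one.
ALDH1A1, chr9:72953054-72953303, minus strand, GRCh38.p14: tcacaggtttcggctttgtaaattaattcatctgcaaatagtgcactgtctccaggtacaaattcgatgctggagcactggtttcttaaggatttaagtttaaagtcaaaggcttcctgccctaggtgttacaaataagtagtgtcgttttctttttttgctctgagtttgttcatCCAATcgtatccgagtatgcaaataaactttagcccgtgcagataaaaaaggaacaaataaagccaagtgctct

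ALDH1A1 was measured at 186, 127 and 218 CPM (counts scaled to a common library size) in ALDHbr libraries 1, 2 and 3. In the ALDHneg libraries it was at 0.631, 0.324 and 0.301 CPM, on 28, 10 and 10 counts. The populations were far apart in each of the 3 pairs, and the sort itself was made on ALDH activity. On the log2 scale ALDHbr cells were higher by 8.65, a 401-fold difference, with a standard error of 0.11 and an adjusted p of 3.46e-23 in edgeR's quasi-likelihood test, and under DMSO the value was 8.14. ALDH1A3, which also makes retinoic acid, was higher by 2.35 on the log2 scale (adjusted p = 0.00442, same edgeR test), but at levels between 0.128 and 0.366 CPM in ALDHbr and at or below 0.0601 CPM in ALDHneg cells. Mitochondrial ALDH1B1 went the other way, from 67.3 to 77.5 CPM in ALDHbr and from 80.3 to 90.9 CPM in ALDHneg libraries, a log2 fold change of -0.21 (adjusted p = 0.00198, same test). ALDH1A2 and ALDH1L2 did not pass the threshold, with log2 fold changes of -0.27 and -0.92 and every library below 1 CPM. Among 11 tested members of the other ALDH families 2 were higher and 5 lower in ALDHbr cells, or 18.2% and 45.5% where 16.9% and 18.3% of all tested genes were, and the lowest was ALDH7A1 (log2 fold change -2.59, 2.27 to 2.62 CPM against 11.6 to 18.5 CPM), an enzyme of lysine breakdown.

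Over all genes, 14953 passed the filter on low counts and 5270 of them (35.2%) differed between the populations under NIF, 2531 higher (16.9%) and 2739 lower (18.3%) in ALDHbr cells. Called means an adjusted p (Benjamini-Hochberg) under 0.05 in that test, in a fit that blocked on the pair. Most differences were small, with a median absolute log2 fold change of 0.36 among the called genes. At an absolute log2 fold change of at least 1 stood 942 genes (6.3%), and here the lower side was the larger, with 684 genes (4.57%) against 258 (1.73%). Above 4 on the log2 scale the order turned, with 20 genes higher and 10 lower. The direction was the same in 3 of 3 pairs for 98.6% of the called genes, and the libraries of the populations did not overlap for 38.1% of all genes tested. Without the replicate block 3281 genes were called.

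Total counts ran from 31212580 to 43127948 over the 6 libraries. No pair of replicates within a population was alike to the level of counting error (chi-square 8.65 to 16.0 for each gene on average). VIM, the intermediate filament of mesenchymal cells, was between 4531 and 5213 CPM, and of the epithelial genes CDH1, EPCAM and GRHL2 were at most 0.203 CPM and ESRP1 at most 1.46 CPM. Other members of the epithelial list were expressed, and the list summed to 5050 to 5470 CPM in ALDHbr and 4720 to 5000 CPM in ALDHneg libraries, where 20 mesenchymal genes summed to 7530 to 7970 and 8660 to 9020 CPM. Summed over a list of 10 colon epithelial markers the level was 0.940 to 1.36 CPM in ALDHbr and 2.73 to 3.58 CPM in ALDHneg libraries, with FABP1 and CDH17 at 0 counts. For 10 blood and endothelial markers it was 1.10 to 2.51 and 2.28 to 3.90 CPM, with CD3E at 0 counts.

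In the DMSO background, ALDHbr replicate 3 held epithelial and colon transcripts that the other 11 SUM159 libraries had at few or 0 counts, with 153 counts of the keratin KRT19 (at most 7 in any other), 148 of AKR1B10 (at most 7), 90 of GPX2 (at most 1), 87 of EPCAM (at most 11), 68 of CDH1 (at most 6) and 55 of LGALS4 (at most 19). Summed over the 10 colon markers it was at 3.20 CPM, within the 0.749 to 3.58 CPM of the others, and over the blood and endothelial markers at 5.17 CPM, above their 1.10 to 3.90 CPM. These genes were picked after their values were seen, and their part in the results was not tested.

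The 12 protein-coding genes that were highest in ALDHbr cells were headed by ALDH1A1. ITGB4, the integrin chain that anchors basal cells to laminin, was at 127, 115 and 146 CPM in ALDHbr and at 6.08, 4.41 and 4.27 CPM in ALDHneg libraries (log2 fold change 4.70, standard error 0.16, adjusted p = 1.08e-15). The keratins KRT6A and KRT75 followed, at 4.63 and 4.44 on the log2 scale. KRT75 was at 314 to 384 CPM in ALDHbr and at 13.8 to 17.9 CPM in ALDHneg cells, and no library of one population reached the range of the other. KRT6A has near-identical copies, so that its counts are uncertain. TGFA, a ligand of the epidermal growth factor (EGF) receptor, was higher by 4.44 and the granulocyte growth factor CSF3 by 4.00. CPPED1, the sterol exporter ABCG1, the interleukin IL1A, the calcium-binding S100A2, the Wnt co-receptor LRP4 and the oxidase XDH completed the group, between 3.13 and 3.81 on the log2 scale.

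At the other end, among the 12 lowest protein-coding genes, ILDR2 was lowest, at 0.847, 0.615 and 0.549 CPM in ALDHbr and 14.9, 15.7 and 25.003 CPM in ALDHneg libraries (log2 fold change -4.76, standard error 0.16, adjusted p = 1.54e-15). S100A4, a calcium-binding protein known from migrating mesenchymal cells, was at 3.10 to 3.495 CPM against 57.4 to 78.2 CPM, a log2 fold change of -4.32. The hair keratin KRT81 (log2 fold change -4.25) and the adhesion molecule MCAM (-4.04) came next. MCAM was at 7.03, 5.08 and 7.71 CPM in ALDHbr and 101, 92.0 and 136 CPM in ALDHneg libraries, and the populations did not overlap. Below -2.9 on the log2 scale were also the neurotrophin BDNF, the lipid transporter ABCA3, the collagens COL6A2 and COL13A1, the glycosyltransferase GALNT15, the kinase PRKCZ, the GDNF receptor GFRA1 and the matricellular CCN4. CPM are not scaled to gene length, so that levels are compared here between libraries and not between genes.

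**Figure D1:**
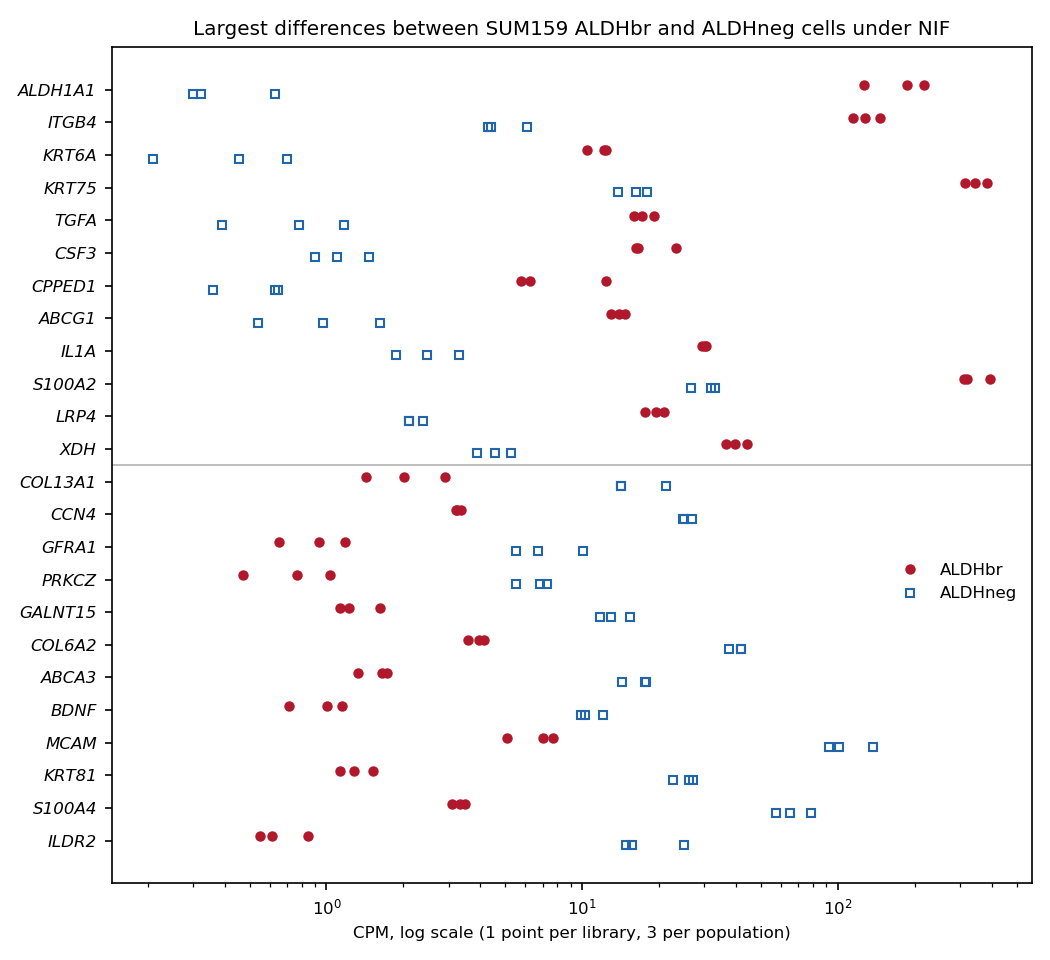
CPM (log scale) of the 12 highest and 12 lowest protein-coding genes in ALDHbr against ALDHneg cells under NIF, with 1 point per library (filled red circles, 3 ALDHbr; open blue squares, 3 ALDHneg). ALDH1A1 has the widest gap, from at most 0.631 to at least 127 CPM; genes were chosen among those whose populations did not overlap.

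Basal breast markers were the list with the most one-sided difference upward, with 10 of 15 tested genes called higher in ALDHbr cells and 0 lower, against 16.9% and 18.3% of all genes. These shares of all genes are the background for the counts of every list below. The median log2 fold change of the basal list was 0.69, where that of all genes was -0.00102, and the same 10 and 0 were counted under DMSO. Besides ITGB4 and KRT6A it held TP63, the transcription factor of basal epithelium, which was at 67.7, 59.0 and 63.7 CPM in ALDHbr and 10.8, 7.92 and 6.58 CPM in ALDHneg libraries (log2 fold change 2.92, adjusted p = 1.12e-13). LAMB3, a laminin chain, was higher by 0.40. SFN was higher by 0.71 and ITGA6, the partner chain of ITGB4, by 0.69. KRT5 was called too (2.90), but below 1 CPM in every library. Of 9 tested luminal markers 2 were lower and 0 higher, the lowest being the luminal factor GATA3 (log2 fold change -0.44) and KRT8 (-0.33), and the call of GATA3 was lost without ALDHneg replicate 3 (adjusted p = 0.0633). KRT5, LAMB3 and SFN were named after their values were seen.

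Collagens differed in both directions, 8 of 24 tested genes being higher and 12 lower, with a median of -0.44. Among the higher were COL17A1, the transmembrane collagen of hemidesmosomes (1.10), the basement membrane chains COL4A1 (0.62), COL4A2 (0.60) and COL4A5 (0.50), and COL7A1 of anchoring fibrils (0.45). COL4A2 was at 353, 330 and 344 CPM in ALDHbr and 251, 198 and 228 CPM in ALDHneg libraries. Among the lower were COL15A1 (-3.54), the transmembrane COL13A1 (-2.96) and the fibril and microfibril chains COL6A2 (-3.37), COL6A1 (-2.44), COL1A1 (-1.59), COL5A1 (-1.23) and COL3A1 (-1.09). COL1A1, the main fibril chain, was at 97.9, 110 and 82.8 CPM against 283, 308 and 277 CPM, and the populations did not overlap. COL4A5, COL7A1, COL6A1, COL1A1, COL5A1 and COL3A1 were named after their values were seen. Of 23 tested genes of matrix remodelling 4 were higher and 12 lower (median -0.26), with the inhibitor TIMP3 at -3.06, the protease MMP3 at -1.41 and the cross-linker LOXL2 at -1.24. LOXL2 was at 95.7 to 112 CPM in ALDHbr and 212 to 281 CPM in ALDHneg cells. POSTN was the highest of this list at 2.52, between 0.615 and 1.28 CPM in ALDHbr libraries.

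Mesenchymal genes were mostly lower in ALDHbr cells, with 12 of 18 tested genes lower, 3 higher and a median log2 fold change of -0.41. FBN1, the microfibril protein, was at 6.29, 4.82 and 8.12 CPM in ALDHbr and 13.2, 12.9 and 22.9 CPM in ALDHneg libraries (log2 fold change -1.33). The N-cadherin gene CDH2 had a log2 fold change of -0.69, FN1 one of -0.44 and AXL one of -0.77, all 3 named after their values were seen. TAGLN was at -0.99. Against this, SNAI2 (0.35), FOXC2 (0.39) and ACTA2 (0.85) were higher, so that the list did not move as one. Of 12 tested epithelial genes 4 were higher and 3 lower, with CLDN1 (1.06), JUP (0.95) and DSP (0.76) of cell junctions on the higher side and OCLN (-0.64) and TJP1 (-0.35) on the lower. The call of OCLN was lost without ALDHbr replicate 3 (adjusted p = 0.142) or ALDHneg replicate 1 (adjusted p = 0.0999). The defining epithelial cadherin CDH1 was at or near 0 in both populations.

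Targets of the Hippo pathway, which holds back the coactivators YAP and TAZ, were lower in 14 of 20 genes and higher in 3 (median -0.25). CCN1 was at 182, 180 and 156 CPM in ALDHbr and 346, 354 and 412 CPM in ALDHneg libraries (log2 fold change -1.10, adjusted p = 1.25e-10), and CCN2 was at -0.97. ANKRD1 (-1.26) and TGFB2 (-2.09) were the lowest. The 3 higher genes were NT5E (0.57), AMOTL1 (0.20) and PTPN14 (0.17). In the Wnt pathway 12 of 29 tested genes were lower and 7 higher. The secreted inhibitors NOTUM (-3.11) and DKK1 (-2.06), the intracellular inhibitor NKD2 (-2.91) and the ligand WNT5A (-2.40) were lower, while the transcription factor TCF7 (1.06) and CTNNB1, the central effector (0.33), were higher. DKK1 was at 27.4, 25.6 and 25.6 CPM in ALDHbr against 96.9, 110 and 124 CPM in ALDHneg libraries, and CCN2 and DKK1 were named after their values were seen.

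Notch genes were higher in 8 and lower in 3 of 23, with a median of -0.06. The ligand JAG2 was highest, at 197, 220 and 226 CPM in ALDHbr and 58.9, 60.9 and 69.7 CPM in ALDHneg libraries (log2 fold change 1.76, adjusted p = 2.52e-16). LFNG, which modifies Notch receptors, was higher by 1.07 and the ligand JAG1 by 0.55, and the target HEY1 was at -0.80. In the TGF-beta and BMP list 9 of 28 were higher and 6 lower, with INHBA at 1.34, BMPR1B at 0.49 and ID1 at 0.47, and BMP4 (-3.17), TGFB2 (-2.09) and ID2 (-0.47) on the lower side. BMPR1B lost its call without ALDHbr replicate 3 (adjusted p = 0.157) and without ALDHneg replicate 2 (0.0598) or 3 (0.0668). ID1, a target of BMP signalling, was at 392 to 439 CPM in ALDHbr and at 286 to 317 CPM in ALDHneg cells. The ligand BMP4 was at 0.436, 0.194 and 0.157 CPM against 2.16, 2.11 and 2.92 CPM.

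Stem cell surface markers were even, 5 higher and 5 lower of 15. ITGB4, ITGA6 and NT5E were on the higher side, and CD9 (-0.84), ITGB3 (-0.81) and CD24 (-0.68) on the lower. CD24, low in the classical breast cancer stem cell phenotype, was at 5.29, 4.47 and 5.77 CPM in ALDHbr and 7.88, 7.49 and 9.62 CPM in ALDHneg libraries. Of 13 tested pluripotency and stem cell factors 5 were higher and 1 lower. They were led by TP63, and POU5F1 (0.48), ID1 (0.47) and KLF4 (0.41) were higher, while SOX9 was at -0.85. POU5F1 was at 6.36 to 7.63 CPM against 4.77 to 5.44 CPM and has near-identical copies, so that its counts are uncertain.

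Receptor tyrosine kinases and their ligands changed in both directions, 9 higher and 13 lower of 37. The PDGF system split, with PDGFRA at 30.7, 26.6 and 37.6 CPM in ALDHbr and 11.0, 6.98 and 10.5 CPM in ALDHneg libraries (log2 fold change 1.74), and PDGFRB at 1.31, 1.20 and 1.31 CPM against 7.00, 5.42 and 7.15 CPM (-2.36). Each receptor was apart between the populations, in opposite directions. The ligand PDGFB was at -3.74. Among ligands of the EGF receptor family TGFA was higher and NRG1, which binds ERBB3 and ERBB4, was lower (-2.12, 11.1 to 16.3 CPM against 48.6 to 63.3 CPM). The ephrin EFNB1 was higher by 1.28.

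Of 27 tested cytokine and chemokine genes 14 were higher and 4 lower (median 0.18). CSF3 was at 16.3, 16.5 and 23.2 CPM in ALDHbr and 1.46, 1.10 and 0.902 CPM in ALDHneg libraries. IL1A was at 30.5, 29.4 and 30.1 CPM against 3.31, 2.47 and 1.86 CPM (log2 fold change 3.56), and IL1B was higher by 2.33. The neutrophil chemoattractant CXCL8, named after its values were seen, was at 234, 247 and 202 CPM against 116, 159 and 80.4 CPM (0.97). These genes did not overlap between the populations, as 38.1% of all tested genes did not. The chemokines CXCL1 (0.98) and CCL20 (1.34), named after their values were seen, were called higher too, but overlapped. CXCL1 was higher in 2 of 3 pairs, and its call was lost in DESeq2 (adjusted p = 0.14). In edgeR it was lost without ALDHbr replicate 1 (adjusted p = 0.113) or 2 (0.0726) and without ALDHneg replicate 1 (0.106) or 2 (0.0724). IL6, which signals to STAT3, was lower, at 3.59, 2.52 and 2.22 CPM in ALDHbr and 9.98, 5.61 and 4.90 CPM in ALDHneg libraries (log2 fold change -1.28, adjusted p = 1.3e-07). The other 3 lower genes were TNFAIP6 (-0.98), CSF1 (-0.51) and the receptor IL1R1 (-0.50), the last named because it completes the count.

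The STAT3 and IL-6 list was even, 9 higher and 9 lower of 29. STAT3 itself was higher by 0.29, at 161, 157 and 161 CPM in ALDHbr and 133, 127 and 133 CPM in ALDHneg libraries (adjusted p = 3.47e-05). The receptor IL6R was higher by 0.92 and JUNB by 0.56, while the cytokine IL11 (-0.97) and the feedback inhibitor SOCS2 (-0.69) were lower. The feedback inhibitor SOCS1 was called higher, so that the 2 inhibitors went in opposite directions. Its call was lost without ALDHbr replicate 2 (log2 fold change 0.50, adjusted p = 0.0768, edgeR) and without the replicate block (0.64, adjusted p = 0.0662). The cyclin CCND1 was lower, at 645, 672 and 671 CPM against 753, 783 and 820 CPM (log2 fold change -0.25). JAK2 did not pass the threshold (log2 fold change 0.07). Of 29 interferon response genes 8 were higher and 4 lower, with IFI27 (1.30), IFI44L (0.76) and IFI44 (0.55) against USP18 (-0.77), IRF1 (-0.60) and MX2 (-2.72), the last below 1 CPM.

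In the list of nitroreduction and drug activation 7 of 18 tested genes were higher and 3 lower in ALDHbr cells, with a median of -0.00788. XDH, a xanthine oxidoreductase that can reduce nitro groups, was at 39.7, 44.1 and 36.4 CPM in ALDHbr and 5.27, 4.54 and 3.88 CPM in ALDHneg libraries (log2 fold change 3.13, adjusted p = 3.18e-16). The aldo-keto reductase AKR1C2 was at 171, 222 and 149 CPM against 21.8, 22.1 and 23.0 CPM (2.99), and AKR1C3 and AKR1C1 were higher by 1.32 and 1.27. The AKR1C genes are near-identical copies of each other, so that the share of reads of each is uncertain. The aldehyde oxidase AOX1 (-0.38) and the carbonyl reductase CBR3 (-0.63) were lower.

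Among targets of NRF2, the transcription factor of the antioxidant response, 14 of 25 were higher and 2 lower (median 0.16), and the AKR1C genes were again the largest. The pentose phosphate enzyme PGD (0.33), named after its values were seen, and the quinone reductase NQO1 (0.26) rose by less. NQO1 was at 434, 513 and 413 CPM in ALDHbr and 350, 395 and 385 CPM in ALDHneg libraries. The gene of NRF2 itself, NFE2L2, was lower, by a log2 fold change of -0.14 (adjusted p = 0.0291), a call that was lost with each of the 6 libraries left out in turn. Of 26 tested glutathione and redox enzymes 13 were higher and 4 lower. SOD2 (0.61), GSTP1 (0.51) and PRDX4 (0.34) were the highest, and GSTP1, which couples glutathione to electrophiles, was at 569 to 641 CPM in ALDHbr and 416 to 438 CPM in ALDHneg cells. TXNRD2, the mitochondrial thioredoxin reductase, was lower (-0.81). Of 18 drug efflux and related ABC transporters 8 were higher and 3 lower. ABCG1 (3.70) and ABCA3 (-3.40) were the extremes, and the efflux pump ABCB1 was higher by 0.79 at 1.99 to 3.92 CPM in ALDHbr and 1.62 to 1.82 CPM in ALDHneg cells, a call lost without ALDHbr replicate 2 (adjusted p = 0.0656) or ALDHneg replicate 1 (0.0569). In the retinoid pathway 3 of 14 were higher and 5 lower, with the retinal reductase DHRS3 at 0.92, the receptor RXRA at 0.60, and the carrier CRABP2 at -0.98.

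The integrated stress response list, headed by the transcription factor ATF4, was the most one-sided downward, with 17 of 26 genes lower and 0 higher in ALDHbr cells (median -0.24). ATF4 raises genes of amino acid supply and of the response to stress when translation is held back, partly through sites with the letters TGATGNAA. These letters stood on either strand in the promoters of 5 of the 14 lower genes of the list that had one, and in 2.94% of the promoters of all tested genes. In the whole list they stood in 6 of 21 promoters (28.6%), and among all genes called lower in 3.76%. Whether the site goes with the lower calls was not tested. The letters are shown in capitals for 4 of the 5 lower genes, on the gene's strand, so that TTGCATCA is the same site read on the other strand. A match is a description of the sequence and no evidence of binding.
CHAC1, chr15:40953236-40953295, plus strand, GRCh38.p14: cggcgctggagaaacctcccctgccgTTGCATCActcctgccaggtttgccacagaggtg
ATF3, chr1:212565190-212565249, plus strand, GRCh38.p14: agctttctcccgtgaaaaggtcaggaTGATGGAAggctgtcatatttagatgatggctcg
FGF21, chr19:48755444-48755503, plus strand, GRCh38.p14: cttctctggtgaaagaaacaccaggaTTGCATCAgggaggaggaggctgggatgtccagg
CEBPG, chr19:33374045-33374104, plus strand, GRCh38.p14: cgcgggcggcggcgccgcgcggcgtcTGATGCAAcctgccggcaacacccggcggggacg

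CHAC1, which breaks down glutathione, was at 8.49, 7.22 and 12.4 CPM in ALDHbr and 19.9, 17.3 and 20.2 CPM in ALDHneg libraries (log2 fold change -1.02, adjusted p = 4.27e-05). CEBPG, a partner of ATF4, was at 49.1, 44.98 and 48.5 CPM against 61.7, 59.0 and 59.7 CPM (-0.34). Neither overlapped between the populations. ATF3 was at 37.4, 28.9 and 12.6 CPM against 58.4, 39.1 and 27.2 CPM, so that the groups overlapped while ATF3 was lower in ALDHbr cells in each of the 3 pairs (-0.71). FGF21, a secreted stress signal, was at -1.46 and below 1 CPM in every library, and its call was lost without ALDHbr replicate 1 (adjusted p = 0.221) or 3 (0.0654), without ALDHneg replicate 1 (0.0837) or 2 (0.0958) and in DESeq2 (0.0819). INHBE was lowest at -1.89 and DDIT3, a regulator of stress-induced death, at -0.72. ATF4 itself was at 426, 443 and 451 CPM in ALDHbr and 500, 511 and 536 CPM in ALDHneg libraries (-0.23, adjusted p = 0.00518), and its call was lost without ALDHbr replicate 2 (0.0678) or ALDHneg replicate 3 (0.0756). CEBPG, DDIT3 and ATF4 were named after their values were seen. Under DMSO 15 genes of the list were lower and 2 higher (median -0.23), or 12 and 2 without ALDHbr DMSO replicate 3 (median -0.24). In the test of the difference between NIF and DMSO 0 genes of the list passed.

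Immediate early genes, the first to respond to growth signals and stress, were lower in 13 of 31 and higher in 5. KLF2 was at 5.72, 5.92 and 9.59 CPM in ALDHbr and 22.9, 21.8 and 30.0 CPM in ALDHneg libraries (log2 fold change -1.83), and NR4A3 was at -1.03. JUNB (0.56) and the phosphatase DUSP6 (0.54) were higher. Of 25 genes of the unfolded protein response and chaperones 5 were higher and 7 lower, with HSPB1 (-0.80) and HERPUD1 (-0.39) lower and EDEM1 (0.59) higher. HSPB1, a small heat shock protein, was at 204, 243 and 230 CPM in ALDHbr against 367, 417 and 393 CPM in ALDHneg libraries.

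Nuclear genes of the respiratory chain were higher in 29 of 48 and lower in 1, NDUFS1 (-0.22), with a median of 0.18 that was 0.18, 0.20 and 0.18 in the 3 pairs. ATP5F1A, a catalytic chain of the ATP synthase, was at 537, 555 and 525 CPM in ALDHbr and 328, 347 and 402 CPM in ALDHneg libraries (log2 fold change 0.59, adjusted p = 3.61e-08), and NDUFB5 of complex I was higher by 0.44. The differences were small but went the same way in 43 of the 48 genes. Under DMSO 18 of the 48 were higher and 2 lower, with a median of 0.11. Without ALDHbr DMSO replicate 3, 9 were higher and 2 lower, and the median was again 0.11. Of 57 listed cytosolic ribosomal proteins 18 were higher and 0 lower under NIF (median 0.08). Under DMSO 2 were higher and 3 lower (median 0.03), or 1 and 1 without that library (median 0.03). RPL12 led the list with 814, 852 and 833 CPM against 709, 763 and 669 CPM (0.22). The list leaves out RPL26, named after its values were seen, which was lower under NIF (-0.75) and under DMSO (-0.84). RPL26 lies in a stretch of chromosome 17, described below, whose genes were mostly lower. No gene of either list passed the test of the difference between the drug conditions, so that a change of these lists with NIF is not shown. Ribosomal proteins of the mitochondrion were higher in 5 and lower in 10 of 50 (median -0.02).

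Genes of DNA repair, which act on the lesions that nitrofurans leave, differed little between the populations. In the Fanconi anemia pathway, which repairs DNA crosslinks, 7 of 30 genes were higher (23.3%) and 2 lower (6.67%), with a median of 0.07. Of all genes 16.9% were higher and 18.3% lower. FANCA was higher by 0.23, at 86.6, 92.9 and 92.8 CPM in ALDHbr and 74.8, 81.8 and 76.3 CPM in ALDHneg libraries (adjusted p = 0.000586), and the populations did not overlap. FANCI was called at 0.12 (adjusted p = 0.0437), a call that was lost without ALDHbr replicate 1 (0.111) or 2 (0.134) and without ALDHneg replicate 1 (0.201) or 2 (0.0890). The FANCI call was also lost with the 6 NIF libraries alone (0.0562), under library-size scaling (0.137) and without the replicate block (0.113). With no filter on low counts its adjusted p was 0.0657, and with at least 10 counts in every library 0.0515. FANCD2 and BRCA2 did not pass (log2 fold changes 0.03 and 0.02), with standard errors of 0.05 and 0.07, and their sign turned when single libraries were left out. BRCA1 was higher by 0.24, at 92.2, 85.4 and 97.9 CPM against 77.2, 77.4 and 78.7 CPM. Of 28 genes of homologous recombination 7 were higher (25%) and 1 lower (3.57%), RPA1 (-0.71), which binds single-stranded DNA.

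In nucleotide excision repair, which removes bulky adducts, 6 of 21 were higher (28.6%) and 3 lower (14.3%), with a median of 0.02. ERCC1 was at 102, 116 and 107 CPM in ALDHbr and 88.8, 92.7 and 93.5 CPM in ALDHneg libraries (log2 fold change 0.24, adjusted p = 0.00164). The helicases ERCC2 (-0.32) and ERCC3 (-0.26) of the same pathway were lower. The damage-marking histone gene H2AX was at -0.18 (adjusted p = 0.0157), and its adjusted p was 0.0951 without ALDHbr replicate 1, 0.0585 without ALDHbr replicate 3 and 0.227 without ALDHneg replicate 3.

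Of 43 S phase genes 12 were higher (27.9%) and 2 lower (4.65%), against 16.9% and 18.3% of all genes (median 0.07), of 54 G2/M genes 6 higher (11.1%) and 10 lower (18.5%, near the background; median -0.04), and of 25 cyclins, CDKs and inhibitors of G1 10 higher and 4 lower (median 0.11). PCNA, the replication clamp, was at 204, 194 and 184 CPM in ALDHbr and 155, 169 and 153 CPM in ALDHneg libraries (log2 fold change 0.29), while RRM2 was at -0.17, a call that was lost without ALDHneg replicate 3 (adjusted p = 0.0580). CCNE1 was higher by 0.61. The cell cycle inhibitor CDKN1A was at 124, 116 and 132 CPM in ALDHbr and 79.7, 60.7 and 67.3 CPM in ALDHneg libraries (0.84), with no overlap. Among G2/M genes the lowest was PIMREG (-1.18), at 19.9, 18.3 and 21.1 CPM against 43.0, 45.5 and 46.0 CPM, and AURKB, a kinase of chromosome segregation, was at -0.80. These 2 of the 10 lower G2/M genes lie in a stretch of chromosome 17 whose genes were mostly lower, as does RPA1.

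The same comparison under DMSO gave the background of the sort without the drug. There 5388 genes (36%) were called, 2672 higher and 2716 lower. The calls shared with NIF in the same direction were 4054, which is 76.9% of the NIF calls and 75.2% of the DMSO calls, and 0 genes were called in opposite directions. Across all tested genes, which are not independent replicates, the log2 fold changes under both conditions had a Pearson correlation of 0.87 and a Spearman correlation of 0.79. Of the 942 NIF calls of at least 1 in absolute log2 fold change, 933 had the same sign under DMSO. The test of the difference between the 2 contrasts called 6 of 14953 genes (0.0401%), 1 with a higher and 5 with a lower value under NIF, and 686 genes had an unadjusted p under 0.05.

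Without ALDHbr DMSO replicate 3, the library that stood apart, 5184 genes were called under NIF and 4112 under DMSO (2017 higher, 2095 lower). The shared calls were then 3390, or 65.4% of the NIF and 82.4% of the DMSO calls, with 0 in opposite directions and a Pearson correlation of 0.83 across genes. The difference between the contrasts again called 6 genes, and all of the 6 described here kept their call, with adjusted p from 8.67e-05 (STC1) to 0.0342 (EREG). Single NIF libraries left out likewise lowered the number of calls under NIF, to between 4103 and 4812.

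**Figure D2:**
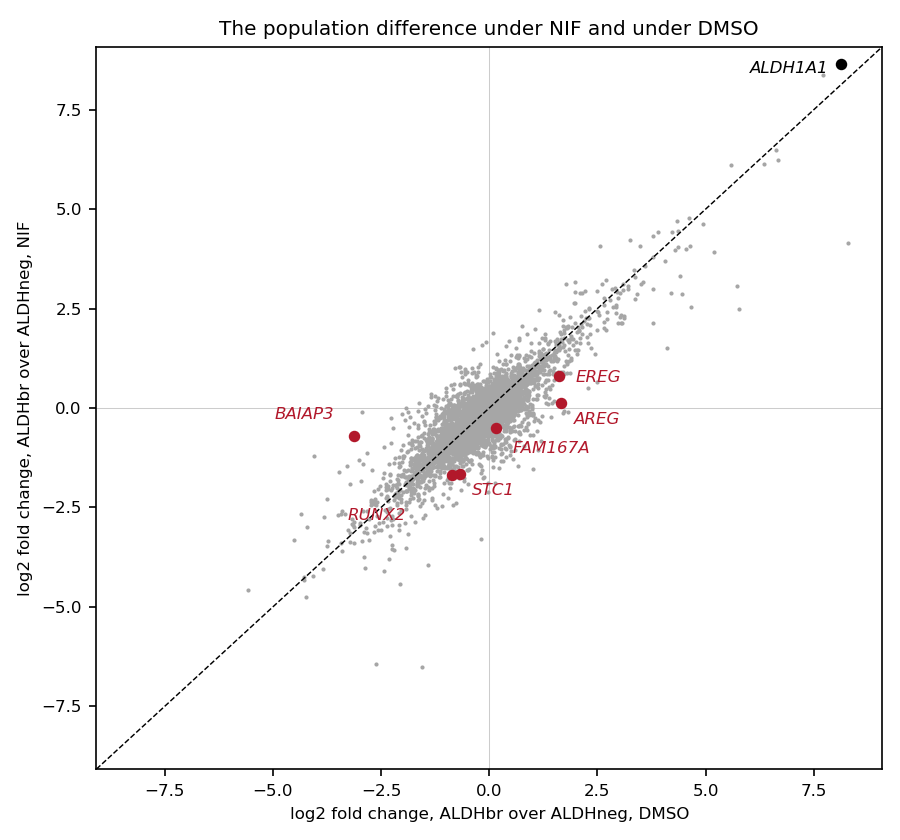
Log2 fold change of ALDHbr over ALDHneg cells under NIF (vertical) against that under DMSO (horizontal) for 14953 genes (grey), with the dashed line of equality. The 6 genes whose difference passed the interaction test are red and ALDH1A1 is black; most genes lie along the line (Pearson 0.87).

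AREG and EREG, ligands of the EGF receptor that neighbour each other on chromosome 4, were among the 6. AREG was at 35.8, 20.0 and 32.8 CPM in ALDHbr and 11.4, 8.15 and 8.06 CPM in ALDHneg libraries under DMSO. Under NIF it was at 15.4, 10.6 and 21.5 CPM against 12.9, 10.1 and 21.0 CPM. The populations were apart under DMSO and overlapped under NIF, with log2 fold changes of 1.66 and 0.12 and a difference of -1.54 (standard error 0.21, adjusted p = 0.00336). EREG was at 274, 219 and 214 CPM against 101, 71.1 and 61.3 CPM under DMSO. Under NIF it was at 79.3, 73.9 and 90.0 CPM against 47.2, 43.3 and 48.3 CPM. Its log2 fold change of 1.61 was 0.82 under NIF (difference -0.80, adjusted p = 0.032), with ALDHbr cells above ALDHneg cells in both conditions.

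The 120 bases before the start of both genes are shown, since their population difference moved with the drug. Capitals mark TATAAA, found on either strand in 9.19% of the promoters of all tested genes, and in AREG also the palindrome TGACGTCA of cyclic AMP response elements, found in 3.73%. EREG had no TGACGTCA in its window.
AREG, chr4:74445016-74445135, plus strand, GRCh38.p14: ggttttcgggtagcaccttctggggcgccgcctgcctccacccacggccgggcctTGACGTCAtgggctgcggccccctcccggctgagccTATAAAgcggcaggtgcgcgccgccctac
EREG, chr4:74365025-74365144, plus strand, GRCh38.p14: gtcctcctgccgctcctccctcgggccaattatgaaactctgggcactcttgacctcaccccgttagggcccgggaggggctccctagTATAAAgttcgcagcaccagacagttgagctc

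STC1, which codes for a secreted glycoprotein, had the smallest p. It was at 23.9, 24.3 and 17.1 CPM in ALDHbr and 38.2, 37.7 and 29.0 CPM in ALDHneg libraries under DMSO. Under NIF the values were 10.2, 10.0 and 9.43 CPM against 32.9, 32.2 and 28.2 CPM. The ALDHbr cells were thus below the ALDHneg cells in both conditions, by -0.69 and -1.65 on the log2 scale, and the difference of -0.96 had an adjusted p of 0.000214 (edgeR). RUNX2, a transcription factor of bone and cartilage, had log2 fold changes of -0.86 under DMSO and -1.67 under NIF (difference -0.81, adjusted p = 0.00619). It was at 4.31, 4.37 and 3.34 CPM in ALDHbr and 14.8, 13.9 and 9.86 CPM in ALDHneg libraries under NIF. FAM167A was at 0.16 under DMSO, which did not pass (adjusted p = 0.133), and at -0.51 under NIF (difference -0.66, adjusted p = 0.032).

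BAIAP3, a gene of vesicle fusion, was the 1 gene of the 6 whose value was higher under NIF. Its mean log2 CPM was below 1, so that it fell outside the naming rule and was named after its values were seen. Under DMSO it was at 2.47, 2.21 and 0.861 CPM in ALDHbr and 18.4, 13.1 and 15.5 CPM in ALDHneg libraries. Under NIF it was at 0.821, 1.29 and 1.15 CPM against 1.60, 1.82 and 1.92 CPM, so that the populations lay closer together but did not overlap. The log2 fold change went from -3.12 to -0.71 (difference 2.41, adjusted p = 0.00619). Under NIF the difference between the populations did not pass the threshold (adjusted p = 0.0568, edgeR). The interaction calls rested on few libraries. Without ALDHbr NIF replicate 1 there were 3 calls and without replicate 2 there were 2. The calls of EREG (adjusted p = 0.327), FAM167A (0.394) and RUNX2 (0.107) were lost without replicate 1, and those of EREG (0.205), FAM167A (0.197), RUNX2 (0.0512) and BAIAP3 (0.0981) without replicate 2. EREG and FAM167A also lost theirs without ALDHneg NIF replicate 2 or 3, ALDHbr DMSO replicate 1 or 2 or ALDHneg DMSO replicate 2, and FAM167A without ALDHneg DMSO replicate 3, with adjusted p between 0.0964 and 0.232. STC1 and AREG kept their calls with each library left out. Without the replicate block 0 genes passed and 238 had an unadjusted p under 0.05, whereas DESeq2 called 6 genes, EREG (adjusted p = 0.487) not among them.

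**Figure D3:**
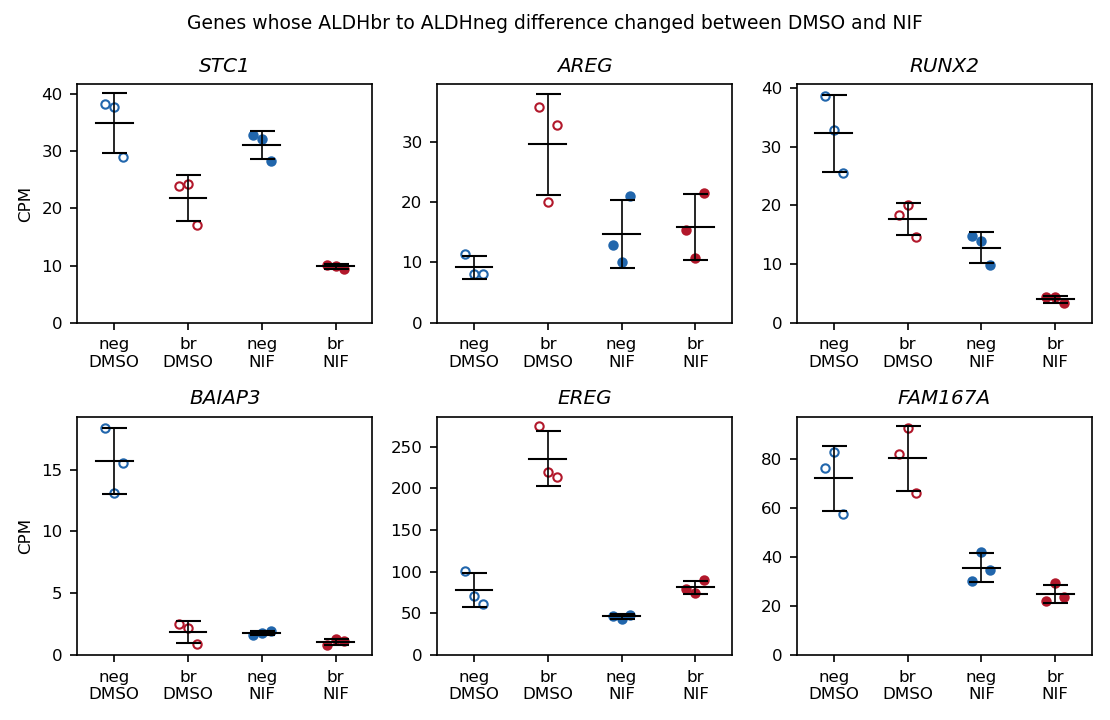
CPM in each library of the 4 SUM159 groups (neg, ALDHneg; br, ALDHbr; open, DMSO; filled, NIF) for the 6 genes with a changed population difference; bars are the mean and SD of 3 libraries. AREG is apart under DMSO and overlaps under NIF, and BAIAP3 in ALDHneg cells is at 13.1 to 18.4 CPM under DMSO and 1.60 to 1.92 CPM under NIF.

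The called genes were unevenly spread over the genome. On chromosome 17, 312 of 890 tested genes (35.1%) were lower in ALDHbr cells, and they lay together. Along the first part of the chromosome, from RPH3AL at 212389 to UBBP4 ending at 22205151 (GRCh38), 254 genes were tested, of which 218 (85.8%) were lower and 3 higher, against 18.3% and 16.9% of all genes. The median log2 fold change of these 254 genes was -0.79, a level in ALDHbr cells of 0.578 of that in ALDHneg cells, with quartiles of -0.96 and -0.65. Along the rest of the chromosome 113 of 636 genes were higher and 94 lower (median 0.00216). The stretch was chosen after its values were seen, from runs of windows of 25 genes, so that its counts are a description.

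The values of the stretch were alike in every pair, with medians of -0.81, -0.78 and -0.76. Under DMSO the median was -0.79, with 222 genes lower and 3 higher, and -0.81 without ALDHbr DMSO replicate 3, with 210 lower and 3 higher. Within a population NIF moved it little, by a median of 0.0201 in ALDHbr and 0.0207 in ALDHneg cells, and in SW620 cells under NIF, where 219 of these genes were tested, the median difference between the populations was -0.03. RPA1, AURKB, PIMREG, RPL26, SREBF1, ACADVL, SLC43A2 and ITGAE lie in it and were lower, with log2 fold changes from -1.18 (PIMREG) to -0.49 (SLC43A2). ALDH3A2, which oxidizes fatty aldehydes, lies there too and was higher by 0.20. DNA was not measured, and a part of copy number in these values was not tested. Without these 254 genes 5049 genes were called.

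Other chromosomes were uneven to a lesser degree. On chromosome 2, 354 of 970 tested genes (36.5%) were lower and 55 (5.67%) higher (median -0.14 under NIF and -0.13 under DMSO). Chromosome 3 leaned the other way, with 227 of 856 genes (26.5%) higher and 96 lower. In its part from 100260992 on, 146 of 427 tested genes (34.2%) were higher, against 81 of 429 (18.9%) before it. On chromosome 18 a run of 54 genes between 36108531 and 56638592 had 29 higher and 2 lower genes and a median of 0.38, with medians of 0.39, 0.44 and 0.32 in the 3 pairs and 0.38 under DMSO. ATP5F1A, the highest of the respiratory chain genes, lies in this run. The cut of chromosome 3 was set by hand. The run on chromosome 18 came from the values in the same windows of 25 genes, so that these counts are a description.

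**Figure D4:**
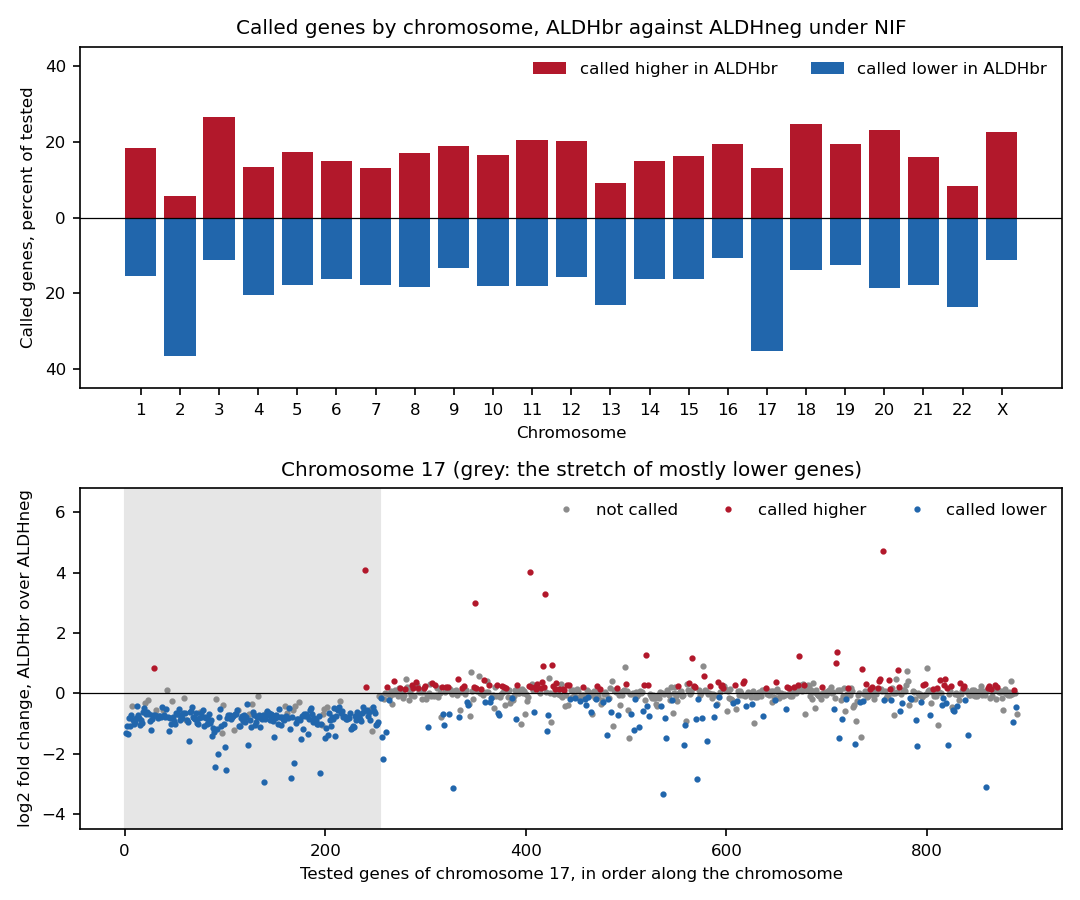
Top, percent of the tested genes of each chromosome called higher (red) or lower (blue) in ALDHbr cells under NIF. Bottom, log2 fold change of the 890 tested genes of chromosome 17 in their order along it; in the grey stretch 218 of 254 genes are lower, and beyond it the points lie around 0.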

How the data were processed

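RNA-seq libraries were made from sorted SUM159 cells with a stranded total RNA kit. Per the labels, the authors aligned reads with STAR to GRCh38, with FastQC for quality. The tool and annotation behind the deposited counts, raw whole-number read counts per gene, and the handling of reads shared by similar genes are not given in the sources used here. All 28307 genes were named as deposited, and 28031 matched RefSeq (GRCh38.p14) by Entrez number.

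The 12 SUM159 libraries (4 groups of 3) were fitted together with edgeR 4.0.16 (R 4.3.3; limma 3.58.1) after filterByExpr (minimum count 10) and TMM scaling, and blocked on the replicate number that the labels share between groups. The study's methods name no model. Contrasts were ALDHbr minus ALDHneg under NIF, the same under DMSO, and their difference, each by the quasi-likelihood F test (two-sided) with Benjamini-Hochberg adjustment at 0.05. CPM are counts scaled to the TMM-adjusted library size. The mean log2 CPM used a prior count of 2. Same-numbered libraries deviated together from their group means in 18 of 18 pairs of libraries (correlations 0.125 to 0.451). These pairs share libraries and group means, so that they are not independent. The study describes its replicates as independent experiments. The counts behind each value set its precision, for counting error only.

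Named were the ALDH1 family, the 12 highest and 12 lowest protein-coding genes (mean log2 CPM of at least 1, no overlap), up to 3 highest and 3 lowest called genes of each list, the genes the study measured and up to 6 genes of the difference. Members, lists and named genes were chosen with earlier results of these data known. The steps were tested on simulated counts. Alternatives were RLE and library-size scaling, other filters, no block, the 6 NIF libraries alone, DESeq2 1.42.0, a minimum fold, leaving out each library, and, chosen after seeing the data, leaving out a stretch of chromosome 17 or the library ALDHbr DMSO replicate 3.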

Additional observations from a re-analysis of the deposited data

Results flagged for a closer look

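For 6 genes the difference between ALDHbr and ALDHneg cells itself differed between NIF and DMSO in the test of the difference (edgeR, adjusted over all genes). The log2 fold change under NIF minus that under DMSO was -0.96 for STC1, -1.54 for AREG, -0.81 for RUNX2, -0.80 for EREG, -0.66 for FAM167A and 2.41 for BAIAP3. AREG was apart between the populations under DMSO alone, while STC1 and RUNX2 were lower in ALDHbr cells under both conditions and further apart under NIF. EREG was higher in ALDHbr cells under both. What lies behind these differences was not tested.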

How the results depend on the processing

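The number of genes called under NIF was between 4868 and 5394 under other scalings, other filters, the 6 NIF libraries alone and DESeq2, and 4103 to 4812 with single NIF libraries left out, against 5270. A further alternative, chosen with the results known, left out ALDHbr DMSO replicate 3 and gave 5184 under NIF and 4112 instead of 5388 under DMSO. Library-size scaling turned the split of 2531 higher and 2739 lower into 2009 and 3161. Without the replicate block 3281 genes were called, and with a minimum absolute log2 fold change of 1 there were 942. For the difference between the drug conditions, 6 genes became 39 with no filter on low counts, 0 without the block, 2 with the minimum fold and 2 to 7 with single libraries left out, STC1 and AREG being called in each such fit. The cause was not tested. Of the single-gene values 3510 kept direction and side of the threshold, 183 fell short of it, 6 passed it and 9 changed sign. These were BRCA2 (-0.012 under library-size scaling, and from -0.031 to 0.074 with single NIF libraries left out, negative without ALDHbr replicate 1 or ALDHneg replicate 3), JAK2 (-0.14 to 0.21, negative without ALDHbr replicate 1), AREG under NIF (-0.055 to 0.35, negative without ALDHbr replicate 3 or ALDHneg replicate 1), ALDH1A2 (-0.75 to 0.19, positive without ALDHbr replicate 3 or ALDHneg replicate 3) and FANCD2 (-0.00043 to 0.063, negative without ALDHneg replicate 1), none of them called under NIF. With 3 libraries a group, genes below 1 CPM rest on few counts.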

Other observations

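Other lists showed smaller or mixed differences between the populations under NIF, read against 16.9% of all genes higher and 18.3% lower. Of 37 hypoxia and glycolysis genes 7 were higher and 13 lower in ALDHbr cells, with the carbonic anhydrase CA9 (log2 fold change -1.93) and the enolase ENO2 (-1.48) lowest and ANGPTL4 (0.81) highest. Of 16 integrins 7 were higher and 6 lower, with ITGA2 (1.51), a collagen receptor chain, and ITGA11 (-2.31), another, at opposite ends after ITGB4. Cholesterol synthesis had 4 higher and 7 lower of 25, with SQLE at 0.76 and STARD4 at -0.84, and fatty acid and lipid metabolism 9 higher and 8 lower of 29, with the coactivator PPARGC1A at -2.56 and the triglyceride enzyme DGAT2 at 0.69. Among 29 apoptosis regulators 7 were higher and 9 lower, with BOK (-1.47) and BMF (-1.01) lower and FAS (0.63) and BCL2L11 (0.45) higher.

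Genes of HLA class I presentation were higher in 7 and lower in 2 of 17, with PSMB9 (0.44), TAPBP (0.44) and TAP1 (0.43) higher and HLA-B (-0.30) lower, HLA genes being near-identical copies with uncertain counts. Replication-dependent histone genes, also near-identical, were lower in 6 and higher in 0 of 23 (median -0.43). Amino acid carriers were higher in 4 and lower in 5 of 19, with SLC1A4 at -1.37, and targets of the aryl hydrocarbon receptor higher in 3 and lower in 3 of 9, with CYP1A1 at -1.62. By gene type, 180 of 1201 tested lncRNA genes (15%) were lower and 74 (6.16%) higher, against 19.2% and 18.6% of the 12987 protein-coding genes.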
